A study of Mus musculus with 16 samples.

Results

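Erythroid progenitors were picked out of lineage-negative c-Kit+ BM cells by their RNA. Red blood cells are made in BM from multipotent progenitors, which pass through erythroid-committed progenitors and then through erythroblasts that fill with hemoglobin and lose c-Kit. GATA1 and KLF1 are the transcription factors that switch on globin, heme synthesis and red cell membrane genes along this path, and the acetyltransferases CBP and P300, whose bromodomain is the target of IACS-70654, are known partners of both. Carbonic anhydrase 1, encoded by Car1, is an early product of the program.

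A member was a cell with more than 200 and fewer than 6000 detected genes and at most 10% mitochondrial unique molecular identifiers (UMIs, each marking 1 captured RNA molecule) that held at least 3 UMIs of Klf1 and Car1 together, at least 1 UMI of Gata1 and at most 4 UMIs of the basophil and mast cell genes Mcpt8, Prss34 and Ms4a2 together. There were 3002 members among 28155 kept cells of 6 libraries, which held 30935 deposited cells of the 77636 in all 16 libraries of the series. The cells came from the tibia and femur of female BALB/c mice and were sorted as CD45+ cells without CD11b, Gr-1, B220, Ter119 and CD3e and with c-Kit. The sort thus removes erythroblasts that carry Ter119. The study set tumor-bearing mice against healthy ones and the drug against its vehicle, with 2 libraries per group.

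WT libraries, labelled ctrl, came from mice without a tumor that had received no treatment. Vehicle libraries came from mice with a 2208L tumor, a transplanted Trp53-null mammary tumor, that were given methylcellulose by mouth. IACS-70654 libraries came from mice with the same tumor that were given IACS-70654, an inhibitor of the CBP/P300 bromodomain, by mouth. Tumors were implanted at an age of 7 to 8 weeks, and both tumor-bearing groups were treated for 7 days by the series record and for 6 days by the study's text. Each sample pooled cells of 3 mice, and the record leaves unclear whether both libraries of a group were parts of 1 pool, so the p-values below measure only the spread between libraries, which may be technical. No barcode was shared between any 2 of the 6 libraries, which held 27427163 to 68415534 UMIs each, and no doublet caller was run. Median UMIs were 13073.5 to 14025 per member and 6347 to 9013.5 per other kept cell.

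The label was checked on genes that the rule did not use. Of 14 other erythroid genes, among them Epor (the erythropoietin receptor), Rhag, Ermap, Gfi1b, Ank1 and Tfrc, 14 were higher in members than in the other kept cells of every library. The median ratio of members to other cells over these genes was 4.76 and 4.92 in the WT libraries, 11.8 and 11.9 for vehicle, and 8.88 and 9.63 in the IACS-70654 libraries. The other cells still held erythroid cells that fell short of a Gata1 UMI, 164 to 538 per library, and in those the 14 genes summed to 1627 to 1934 CPM (UMIs scaled to 1e+06 per library and cell set), against 2093 to 2617 CPM in members and 151 to 231 CPM in the remaining cells. The rule therefore took part of the erythroid cells and not all of them.

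The rule genes themselves are given as a description. The median member held 2 Klf1 UMIs in each library, whereas median Car1 was 26 and 28 UMIs in WT, 29 and 32 for vehicle, and 37 and 38 in the IACS-70654 libraries. At the edge of the rule, 5 to 27 members per library had exactly 3 UMIs of Klf1 and Car1, and 15 to 48 cells per library stayed outside with 2 such UMIs.

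Members made up a smaller share of c-Kit+ cells in tumor-bearing mice. WT libraries held 18.2% and 17.6%, vehicle libraries 8.57% and 7.40%, and IACS-70654 libraries 8.77% and 7.64% of kept cells. Both WT libraries lay above all 4 tumor libraries, whereas vehicle and IACS-70654 libraries overlapped. WT averaged 17.9% ± 0.416 (SD, n = 2) and vehicle 7.99% ± 0.822 (SD, n = 2), a 2.24-fold difference with an exact two-sided permutation p of 0.333, the smallest that 2 libraries against 2 can give. IACS-70654 averaged 8.21% ± 0.794 (SD, n = 2), 0.219 percentage points above vehicle (exact permutation p = 0.667). A share is relative to the other sorted cells, so fewer erythroid progenitors and more cells of other kinds cannot be told apart.

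**Figure D1:**
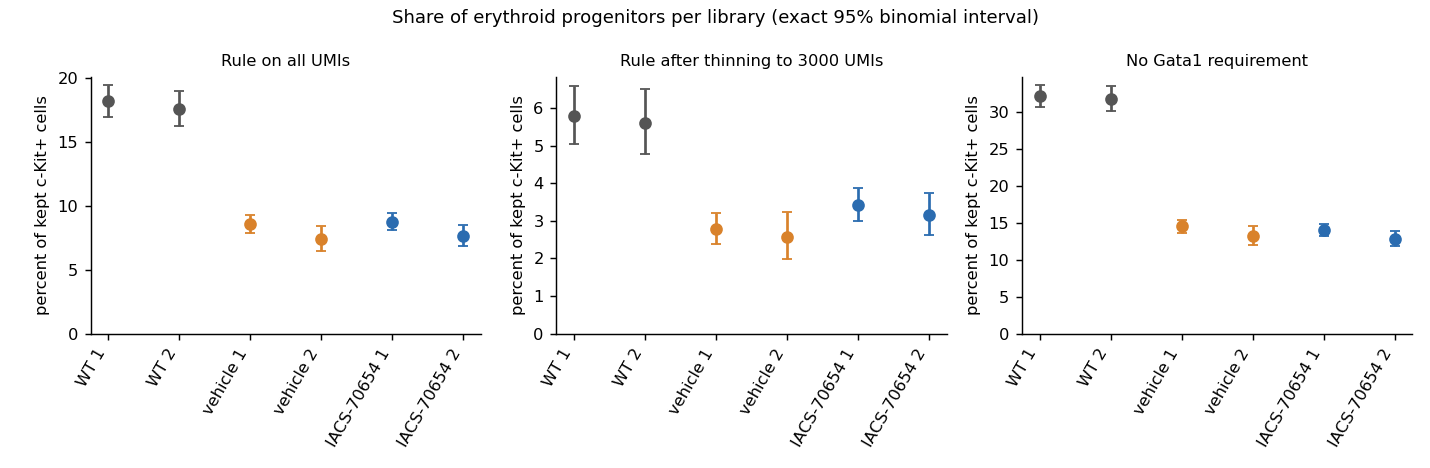
Percent of kept c-Kit+ cells (y axis) that met the rule in each library (x axis), on all UMIs, after each cell was thinned to 3000 UMIs, and without the Gata1 requirement. Points are libraries and bars exact 95% binomial intervals, and both WT libraries lie above the 4 tumor libraries in each panel.

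Because the rule counts raw UMIs, it was repeated on cells thinned at random to 3000 UMIs each, which gave 5.79% and 5.59% in WT, 2.77% and 2.56% for vehicle, and 3.42% and 3.15% in the IACS-70654 libraries. On this scale both IACS-70654 libraries lay above both vehicle libraries (exact permutation p = 0.333). Without the Gata1 requirement the shares were 32.1% and 31.7%, 14.5% and 13.2%, and 14% and 12.8%, for the 3 groups in turn, and vehicle and IACS-70654 overlapped again.

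Gene levels in members were compared on UMIs summed over the members of each library. Of 11640 genes that passed the filter on low counts, 65 were higher and 41 lower in vehicle than in WT members, or 0.911% of genes tested (0.558% and 0.352%). A gene was called where the edgeR quasi-likelihood test gave a Benjamini-Hochberg adjusted p below 0.01 and the log2 change exceeded 0.5 in either direction. Between IACS-70654 and vehicle 143 genes were higher and 472 lower, or 5.28% (1.23% and 4.05%), and between IACS-70654 and WT 209 were higher and 499 lower, or 6.08% (1.8% and 4.29%). An unadjusted p under 0.05 was reached by 14.4%, 30.1% and 31.8% of all genes in these comparisons in turn. Counts of genes in the lists below are to be read against these shares of all genes. Where both libraries of a group are said to lie beyond those of another, 23.9% of all genes lay above and 20.5% below for vehicle against WT, 26.2% and 28.7% for IACS-70654 against vehicle, and 29.6% and 28.5% for IACS-70654 against WT. The vehicle libraries serve in both of the first comparisons, so a gene that is high with vehicle tends to appear as a rise in one and a fall in the other. Without vehicle replicate 1, the vehicle library with more members, 20 and 15 genes were called against WT and 62 and 264 between IACS-70654 and vehicle, and without IACS-70654 replicate 1 the latter were 91 and 323.

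Adult globin RNA in members differed between all 3 groups. Hemoglobin joins 2 alpha chains, encoded by Hba-a1 and Hba-a2, with 2 beta chains, encoded in the reference by Hbb-bs and Hbb-bt. Hbb-bs (ENSMUSG00000052305) was measured at 102 and 134 CPM in WT members, 364 and 339 CPM with vehicle and 522 and 581 CPM with IACS-70654. The 3 groups did not overlap, and each step was called, by 1.57 ± 0.074 (log2 change ± SE) from WT to vehicle (adjusted p = 1.21e-16) and by 0.65 ± 0.069 from vehicle to IACS-70654 (adjusted p = 9.62e-09). Hba-a1 (ENSMUSG00000069919) had its highest values with vehicle, with 44.1 and 55.9 CPM in WT, 151 and 118 CPM with vehicle and 80.4 and 87.9 CPM with IACS-70654. It rose by 1.49 ± 0.085 from WT to vehicle (adjusted p = 1.73e-14) and fell by 0.74 on the log2 scale (SE 0.082) from vehicle to IACS-70654 (adjusted p = 1.9e-08), and the groups again did not overlap. The fall was no longer called with DESeq2 (-0.68) or when members were chosen after thinning (-0.49), and the rise of Hbb-bs from vehicle to IACS-70654 was 0.47 and not called among members with at least 10 UMIs of Klf1 and Car1 and no Cd34 or Gata2 UMI.

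Both minor genes rose from WT to vehicle as well, Hba-a2 by 1.07 (adjusted p = 6.05e-05), or 0.44 without vehicle replicate 1, and Hbb-bt by 1.69 (adjusted p = 1.75e-05). DESeq2 called the rises of Hbb-bs and Hba-a1 but not these 2. Hba-a2 held 10.3 and 11.7 CPM in WT, 26.6 and 14.9 CPM with vehicle and 16.2 and 13.6 CPM with IACS-70654. Its fall from vehicle to IACS-70654, by 0.60 on the log2 scale (adjusted p = 0.00862), rested on vehicle replicate 1, without which the change was 0.04. Hbb-bt held 3.54 and 3.04 CPM in WT, 10.5 and 12 CPM with vehicle and 9.07 and 13.6 CPM with IACS-70654, so that the tumor-bearing groups overlapped (log2 change -0.02). Near-identical copies share reads, so the split of a chain between its genes is uncertain. BALB/c mice also carry another beta-globin haplotype than the strain of the reference, so the 2 beta names are those of the features that took the reads. The embryonic genes Hbb-y, Hbb-bh1 and Hba-x stayed at or under 0.864 CPM in each library.

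Summed by chain, which avoids that split, alpha globin was 54.4 and 67.6 CPM in WT, 178 and 133 CPM with vehicle and 96.5 and 102 CPM with IACS-70654. Beta globin was 106 and 137, 375 and 351, and 531 and 595 CPM. The ratio of beta to alpha UMIs was therefore 1.94 and 2.03 in WT, 2.10 and 2.64 for vehicle, and 5.50 and 5.86 in the IACS-70654 libraries. Cells that fell short of a Gata1 UMI also had their highest ratios with IACS-70654, at 1.67 and 2.25, 2.07 and 1.59, and 6.02 and 6.05. All other kept cells gave 1.81 and 2.07, 2.24 and 1.91, and 5.01 and 4.50. They contain the cells short of a Gata1 UMI, so these ratios are not independent of those in that set. Globin summed to 154 to 386 CPM in cells short of a Gata1 UMI and to 23.8 to 63.1 CPM in all other kept cells. In each of these cell sets both IACS-70654 libraries lay above the 4 others (exact permutation p for 2 against 2 cannot go below 0.333). Free RNA in the droplets, which carries the mixture of a whole capture, was not separated from RNA of the cells. Samples were multiplexed by tag, and which of them shared a capture was not established.

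**Figure D2:**
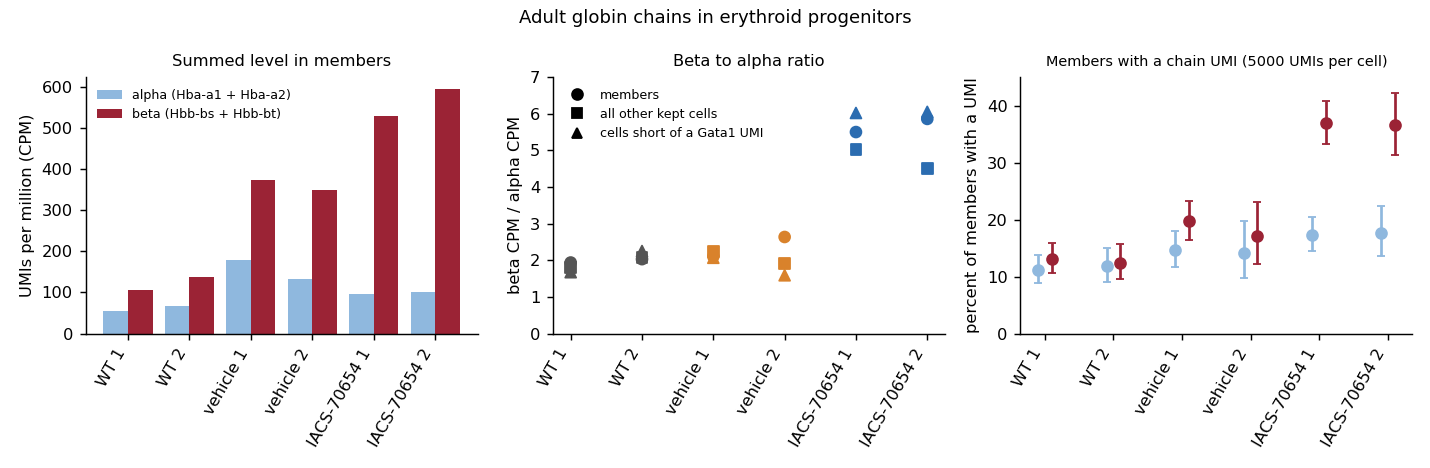
Left, summed alpha and beta globin in members (y axis, CPM) for each library (x axis). Middle, the ratio of beta to alpha CPM in members, in all other kept cells and in cells short of a Gata1 UMI, at 1.59 to 2.64 in WT and vehicle libraries and 4.50 to 6.05 with IACS-70654. Right, percent of members with a UMI of each chain after thinning to 5000 UMIs, with exact 95% binomial intervals.

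Per cell, members were thinned to 5000 UMIs, which left out members of lower depth and kept 204 to 656 per library. A beta-globin UMI was found in 13.1% and 12.4% of WT members, 19.7% and 17.2% of vehicle members and 36.9% and 36.6% of IACS-70654 members. For alpha globin the shares were 11.1% and 11.8%, 14.6% and 14.2%, and 17.3% and 17.7%. Among all other kept cells at the same depth, 3.41% to 5.45% held a beta and 1.65% to 2.63% an alpha UMI. With IACS-70654, more members thus held a beta-globin UMI than in either other group, and the alpha share was also higher. Members rich in alpha globin followed another order, since 3.35% and 3.46% of WT, 9.57% and 5.88% of vehicle and 3.93% and 4.04% of IACS-70654 members held at least 3 alpha UMIs.

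At least 3 globin UMIs of either chain were found in 5.18% and 6.10% of WT members, 12.8% and 8.82% of vehicle members and 18.6% and 20.2% of IACS-70654 members. The means were 5.64% ± 0.647, 10.8% ± 2.78 and 19.4% ± 1.15 (SD, n = 2 each), and the groups did not overlap (exact permutation p = 0.333 for each pair, the smallest possible). Other kept cells gave 0.551% to 1.44%. The difference between IACS-70654 and vehicle was 8.58 percentage points, but 1.75 when at least 10 UMIs were asked for, and then the libraries overlapped (exact permutation p = 0.667).

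Regulatory sequence is shown for the 2 leading globin genes, which moved apart under IACS-70654, and for Kel, which was lower with IACS-70654 under each alternative setting, as described next. Each run is the 250 bases before the gene's start on its own strand, 5′ to 3′, from RefSeq on build GRCm38.p6. The mice were BALB/c, whose beta-globin haplotype is not that of the reference, so the bases in these cells may differ. Capitals mark the letters AGATAA or TGATAA, which hold the GATA core that GATA1 is known to bind, and CCACACCC, a form of the CACC box that KLF1 is known to bind, each searched on both strands.
Hbb-bs, chr7:103827929-103828178, minus strand: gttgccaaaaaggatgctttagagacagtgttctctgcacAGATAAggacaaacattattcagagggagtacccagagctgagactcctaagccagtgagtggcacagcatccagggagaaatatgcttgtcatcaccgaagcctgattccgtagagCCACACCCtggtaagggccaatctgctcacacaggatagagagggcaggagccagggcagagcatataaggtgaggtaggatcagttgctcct
Hba-a1, chr11:32283422-32283671, plus strand: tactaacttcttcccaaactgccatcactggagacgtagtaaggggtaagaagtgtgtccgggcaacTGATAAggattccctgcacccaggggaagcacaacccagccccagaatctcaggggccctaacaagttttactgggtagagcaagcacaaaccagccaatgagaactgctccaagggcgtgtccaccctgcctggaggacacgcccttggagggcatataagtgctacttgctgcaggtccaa
Kel, chr6:41704326-41704575, minus strand: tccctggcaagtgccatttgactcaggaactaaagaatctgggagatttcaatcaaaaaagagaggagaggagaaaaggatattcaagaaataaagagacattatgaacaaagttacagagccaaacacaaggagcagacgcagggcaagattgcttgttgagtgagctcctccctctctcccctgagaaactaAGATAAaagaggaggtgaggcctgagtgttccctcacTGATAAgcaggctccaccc

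The Hbb-bs window holds GATA letters from position -210 and CCACACCC from -93, counted from the start. The Hba-a1 window holds GATA letters from -183 and no CCACACCC, and the Kel window GATA letters from -56 and from -19. GATA letters are in 16.6% of 32851 promoters of this length and in 11.6% of the 9000 tested genes that had one. They are in 27.5% of 40 promoters of the genes higher in vehicle than WT and in 22.3% of 355 promoters of the genes lower with IACS-70654 than vehicle, against 9.84% of 122 promoters of those higher with IACS-70654. These are 11, 79 and 12 promoters, from sets of 65, 472 and 143 genes of which the others had no promoter entry. The vehicle libraries serve in each set, so the shares are not independent of each other. CCACACCC is in 4.03% of tested genes, and in 15%, 6.20% and 5.74% of these 3 sets (6, 22 and 7 promoters). A match is a description of letters and not a bound site.

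Slc4a1 and Alas2 rose from WT to vehicle and fell from vehicle to IACS-70654. Slc4a1, which encodes the band 3 anion exchanger, had 10 and 9 UMIs in WT members, 61 and 22 for vehicle, and 12 and 2 in the IACS-70654 libraries, or 1.01 and 1.24, 7.60 and 7.79, and 1.31 and 0.432 CPM. Both vehicle libraries lay above the other 4, and the log2 change was 2.75 ± 0.35 from WT to vehicle (adjusted p = 2.27e-06) and -2.89 ± 0.38 from vehicle to IACS-70654 (adjusted p = 4.91e-07). Alas2, the erythroid enzyme that starts heme synthesis, held 1.52 and 1.79 CPM in WT, 5.35 and 4.96 CPM with vehicle and 2.08 and 1.73 CPM with IACS-70654. It rose by 1.65 ± 0.34 (adjusted p = 0.00247) and fell by 1.40 (SE 0.34, adjusted p = 0.00318). These are low counts, and the call for Slc4a1 from WT to vehicle and both calls for Alas2 were lost with DESeq2 at nearly the same size.

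Of 23 tested red cell membrane and skeleton genes, 2 rose and 0 fell from WT to vehicle (median log2 change 0.15, against -0.00311 over all genes), and 0 rose and 10 fell from vehicle to IACS-70654 (median -0.24, against -0.00483). DESeq2 called 1 of the 2 increases (Sptb, not Slc4a1) and 8 of the 10 decreases. Kel, the Kell blood group protein (ENSMUSG00000029866), held 80.5 and 90.2 CPM in WT, 95.2 and 100 CPM with vehicle and 38.4 and 43.4 CPM with IACS-70654. Both IACS-70654 libraries lay below the other 4, and the fall from vehicle was 1.26 on the log2 scale (SE 0.078, adjusted p = 2.65e-14), called under each of the 16 alternative settings that do not choose members by globin, Cd34 or Gata2. The others that fell included Epb42 (protein 4.2, by 1.67), Cd36 (a fatty acid transporter, by 1.80), Dmtn (dematin, by 1.08), Add2 (beta-adducin, by 0.90), Icam4 (by 0.63), the Rh family genes Rhag (by 0.57) and Rhd (by 0.56), and Slc4a1. DESeq2 did not call Epb42 and Dmtn, and Dmtn was called under 9 of the 16 settings, with the call lost when any vehicle or IACS-70654 library was left out.

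Sptb, beta-spectrin, moved the other way. It held 33.4 and 38.8 CPM in WT, 57.6 and 54.5 CPM with vehicle and 78.7 and 70 CPM with IACS-70654, rose from WT to vehicle (log2 change 0.65 ± 0.087, adjusted p = 5.21e-06), and was 1.07 ± 0.077 above WT with IACS-70654 (adjusted p = 8.25e-13). Against vehicle its change of 0.42 did not pass the size limit.

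**Figure D3:**
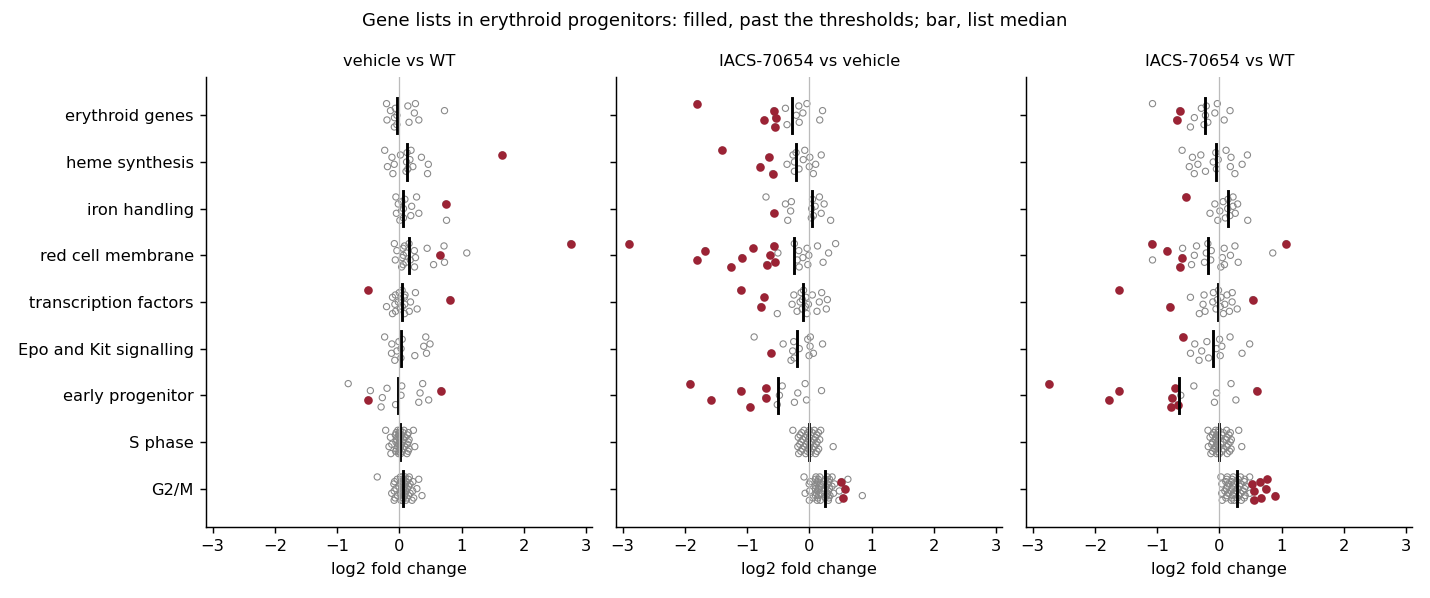
Log2 fold change in members (x axis) of each tested gene of 9 lists (y axis), for the 3 comparisons. Filled points passed both thresholds of the edgeR test, open points did not, and bars are list medians, which lie at -0.24 for red cell membrane genes, -0.50 for early progenitor genes and 0.24 for G2/M genes between IACS-70654 and vehicle.

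Of 17 tested heme synthesis genes 1 rose from WT to vehicle (Alas2) and 4 fell from vehicle to IACS-70654, with a median of -0.21, of which DESeq2 called 1. Besides Alas2 these were Cpox (coproporphyrinogen oxidase), at 192 and 211 CPM in WT, 214 and 225 CPM with vehicle and 149 and 140 CPM with IACS-70654, which fell by 0.59, and Uros and Ppox, which act before and after it and fell by 0.65 and 0.79. Other enzymes were not called, such as Alad with a log2 change of 0.06. Of 15 iron genes, Slc25a37 (mitoferrin-1, which brings iron into mitochondria) rose by 0.74 from WT to vehicle, and Slc40a1 (the iron exporter ferroportin) fell by 0.57 from vehicle to IACS-70654, and DESeq2 called neither. Tfrc, the transferrin receptor, held 140 and 147, 177 and 183, and 140 and 132 CPM, with changes of 0.31 and -0.38 that did not pass the size limit.

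Of the 14 erythroid identity genes used for the label check, 0 were called from WT to vehicle by edgeR (median -0.04), with 9 at an unadjusted p under 0.05 (14.4% of all genes) and 0 called by DESeq2, and from vehicle to IACS-70654 0 rose and 5 fell (median -0.28): Rhag, Rhd, Cd36, Hemgn (hemogen, by 0.72) and Sphk1 (sphingosine kinase 1, by 0.54). Epor held 51.0 and 53.3 CPM in WT, 50.2 and 53.4 CPM with vehicle and 59.6 and 57.5 CPM with IACS-70654, and its log2 change from vehicle to IACS-70654 was 0.21 ± 0.077 (adjusted p = 0.0549). Of 14 genes of erythropoietin and Kit signalling, 0 were called from WT to vehicle by edgeR and 0 by DESeq2, with 4 at an unadjusted p under 0.05. From vehicle to IACS-70654 1 fell, where 4.05% of all genes were called lower, namely Ptpn6, the phosphatase SHP-1, by 0.61. After thinning to 5000 UMIs, a Kit UMI was found in 45.4% of WT, 45.7% of vehicle and 38.7% of IACS-70654 members on average. The exact permutation p was 0.333 for IACS-70654 against vehicle and against WT. Kit encodes c-Kit, on which the cells were sorted, and whether the sort has a part in this was not tested.

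Among 22 erythroid transcription factors and cofactors 1 rose and 1 fell from WT to vehicle, and 0 rose and 3 fell from vehicle to IACS-70654 (median -0.10). Over all genes 0.558% rose and 0.352% fell from WT to vehicle, and 1.23% rose and 4.05% fell from vehicle to IACS-70654. Gata2, the factor that GATA1 replaces as cells mature, held 29.5 and 33.0 CPM in WT, 22.7 and 20.9 CPM with vehicle and 10.2 and 10.4 CPM with IACS-70654. The groups did not overlap. The fall from vehicle to IACS-70654 was 1.10 on the log2 scale (SE 0.15, adjusted p = 1.15e-06), and that from WT to vehicle 0.50 (SE 0.12, adjusted p = 0.00858), a value at the limits. The latter fall was called under 6 of the 16 alternative settings that do not choose members by globin, Cd34 or Gata2. Lyl1, a factor of the Tal1 family, fell by 0.78 and Hemgn by 0.72. Sox6, a known repressor of embryonic globin, held 17.9 and 24.3, 38 and 34, and 30.9 and 28.7 CPM, and rose by 0.81 from WT to vehicle (SE 0.12, adjusted p = 3.83e-05). Tal1, Lmo2, Zfpm1, Bcl11a and Myb were not called, with changes from vehicle to IACS-70654 of -0.09, 0.27, -0.06, -0.06 and -0.11.

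The drug target genes did not pass the thresholds. Crebbp, which encodes CBP, held 84.7 and 93.3 CPM in WT, 93.0 and 89.2 CPM with vehicle and 103 and 111 CPM with IACS-70654 (log2 change from vehicle 0.22, adjusted p = 0.018), and Ep300, which encodes P300, 51.5 and 50.5, 52.7 and 56.6, and 51.3 and 55.5 CPM (-0.02). None of the 15 acetyltransferase, bromodomain and deacetylase genes on the list was called by edgeR or DESeq2 in any comparison, with 2, 6 and 5 of them at an unadjusted p under 0.05 in the 3 comparisons in turn, against 14.4%, 30.1% and 31.8% of all genes.

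Of 14 tested genes of earlier progenitors, 1 rose (Adgrl4, by 0.67) and 1 fell (Gata2) from WT to vehicle, neither of them called by DESeq2. From vehicle to IACS-70654 0 rose, 6 fell and 8 did not pass, with a median of -0.50, and DESeq2 called 5 of the decreases, without Mecom. Ifitm1 held 122 and 157 CPM in WT, 128 and 110 CPM with vehicle and 46.6 and 30.9 CPM with IACS-70654, and fell by 1.57. Slamf1 (CD150, a stem cell surface protein) fell by 1.91 at 16 and 5 UMIs with IACS-70654, Mecom by 0.95, Sox4 by 0.70 and Cd48 by 0.70, and Gata2 was the other. Cd34 did not pass, with a log2 change of -0.19.

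After thinning to 5000 UMIs, 20.0% and 16.9% of WT, 16.5% and 13.7% of vehicle and 10.1% and 10.6% of IACS-70654 members held a Cd34 or Gata2 UMI. IACS-70654 libraries lay below vehicle libraries by 4.81 percentage points on average, and vehicle below WT by 3.30 (exact permutation p = 0.333 for each, the smallest possible). The latter difference was 1.75 points without WT replicate 1 and 1.91 without vehicle replicate 2. A Gata2 UMI was found in 13.8%, 9.48% and 5.69% of WT, vehicle and IACS-70654 members on average. The share with a Cd34 UMI did not follow this order, at 5.82%, 6.79% and 5.32% (exact permutation p = 0.667, 0.667 and 1 for vehicle against WT, IACS-70654 against vehicle and IACS-70654 against WT). Among other kept cells 43.7% to 55.9% held a UMI of either gene, 15.1% to 22.6% one of Gata2 and 34.7% to 48.2% one of Cd34.

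Members with and without globin RNA were also set apart, as a description. Members without a globin UMI were 69.2% and 69.2% of WT, 66.3% and 69.5% of vehicle and 42.9% and 45.2% of IACS-70654 members. These cells were chosen by their globin UMIs, which differ between the groups, so they are not the same fraction of members in each group, and their values are a description. Among members without a globin UMI the log2 change from vehicle to IACS-70654 was -1.36 for Kel and -1.09 for Gata2. From WT to vehicle it was 0.13 for Sptb, 0.19 for Sox6, 0.41 for Slc25a37 and 0.80 for Tex14.

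Among members with at least 3 globin UMIs, Slc4a1 was 10.6 and 9.58 CPM in WT, 43.0 and 49.4 CPM with vehicle and 3.08 and 1.25 CPM with IACS-70654. Tfrc in these cells was 243 and 283, 376 and 398, and 183 and 179 CPM. Globin-rich members of IACS-70654 mice thus held less of both of these RNAs than those of either other group, in both libraries. Without thinning, these members were 8.65% and 11.03% of WT, 16.7% and 14.3% of vehicle and 32.3% and 31.5% of IACS-70654 members. The cut therefore took a larger fraction of members with IACS-70654, where beta globin was itself higher. What part of the lower values lies in that was not tested. Epor in the same cells was 68.6 and 74.5, 61.4 and 89.4, and 69.9 and 70.5 CPM, and the groups overlapped. No test was run on these cells, since they were chosen by their globin UMIs.

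**Figure D4:**
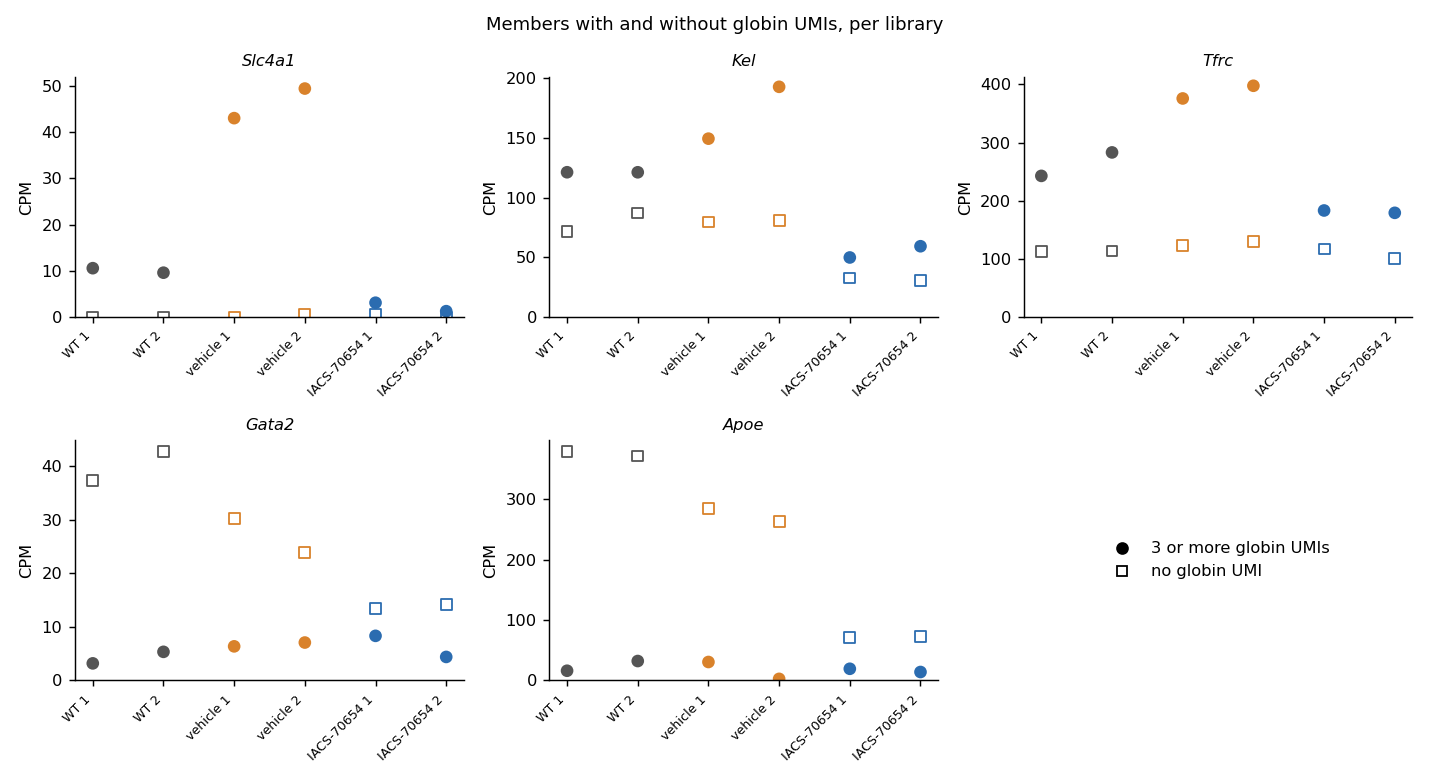
CPM (y axes) of 5 genes in members with at least 3 globin UMIs (filled circles) and with no globin UMI (open squares) in each library (x axes). Slc4a1, Kel and Tfrc were highest in globin-rich vehicle members, and Gata2 and Apoe were higher without globin RNA in each library.

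Of 46 S phase genes 0 were called in any comparison by edgeR or DESeq2, with medians of 0.02, 0.00 and -0.01 for vehicle against WT, IACS-70654 against vehicle and IACS-70654 against WT and with 8, 7 and 10 genes at an unadjusted p under 0.05, against 14.4%, 30.1% and 31.8% of all genes. Of 54 G2/M genes 0 were called between vehicle and WT (12 at an unadjusted p under 0.05, 0 by DESeq2), 3 rose from vehicle to IACS-70654 (median 0.24) and 8 were higher with IACS-70654 than in WT (median 0.28). In the latter comparisons 39 and 43 of the 54 reached an unadjusted p under 0.05, and the log2 change was positive for 50 and for 54, mostly below the threshold of 0.5. Ube2c, a ubiquitin-conjugating enzyme of mitosis, held 197 and 194 CPM in WT, 233 and 230 CPM with vehicle and 307 and 355 CPM with IACS-70654, and rose by 0.51 ± 0.057 from vehicle (adjusted p = 2.26e-08). Ccnb1 rose by 0.57 and Kif23 by 0.54, the latter not called by DESeq2. Of 17 G1 regulators, the inhibitor genes Cdkn2c and Cdkn2d rose by 0.81 and 0.62 and Ccnd2, cyclin D2, fell by 0.61, of which DESeq2 called the fall alone. Of 19 Myc and ribosome biogenesis genes 0 were called by edgeR or DESeq2 in any comparison, with 2, 4 and 5 at an unadjusted p under 0.05, against the same shares of all genes.

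Of 26 interferon response genes 0 were called by edgeR or DESeq2 between vehicle and WT, with 9 at an unadjusted p under 0.05, against 14.4% of all genes. From vehicle to IACS-70654 1 fell (Bst2, by 0.74), near the 4.05% of all genes called lower. Compared with WT, 5 were lower with IACS-70654, where 4.29% of all genes were called lower. Among them were Ifi47, Igtp, Irgm1 and Tap1, of which DESeq2 called Irgm1 and Tap1. The median against WT was -0.30. Of 12 p53 target genes Btg2 fell by 0.62 from WT to vehicle, a call lost with DESeq2. Txnip, which encodes a thioredoxin inhibitor, fell by 0.58 in the same comparison and held 63.5 and 59.2, 45.4 and 32.6, and 41.4 and 38.7 CPM.

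The genes with the largest changes were taken among those of at least 20 CPM on average whose libraries did not overlap, 10 in each direction. From vehicle to IACS-70654 the largest decrease was in Zg16, which encodes a secretory granule lectin, at 63.4 and 65.8 CPM in WT, 70.8 and 71.5 CPM with vehicle and 10.5 and 11.7 CPM with IACS-70654 (log2 change -2.69 ± 0.10, adjusted p = 1.08e-19). C1qtnf12, a secreted adipokine, held 33.8 and 38.2, 40.2 and 44.6, and 6.56 and 7.13 CPM, and Prkch, protein kinase C eta, 32.6 and 33.7, 30.3 and 31.9, and 5.58 and 5.4 CPM. Neither was called between WT and vehicle (0.20 and -0.12), and they fell by 2.61 and 2.46 from vehicle to IACS-70654. Apoe, apolipoprotein E, held 287 and 297, 210 and 206, and 41.9 and 42.3 CPM, and fell by 0.50 from WT to vehicle and by 2.30 from vehicle to IACS-70654 (SE 0.066, adjusted p = 2.55e-23). Its fall from WT to vehicle, at the size limit, was called under 10 of the 16 alternative settings without a limit on globin, Cd34 or Gata2.

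The other decreases included those in Dnah8 (a dynein heavy chain, by 2.19), Gdf3 (a TGF-beta family ligand, by 2.10), 1700097N02Rik (by 2.10), Ass1 (argininosuccinate synthase, by 1.94) and Slc24a3 (a sodium, potassium and calcium exchanger, by 1.93). All 10 largest decreases were called under each of the 16 alternative settings without a limit on globin, Cd34 or Gata2. Against WT, Lgals1 (galectin-1) also stood among the largest, at 336 and 365 CPM in WT, 283 and 267 CPM with vehicle and 79.4 and 88.6 CPM with IACS-70654.

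Increases were smaller. Nrgn, neurogranin, rose most, from 17.4 and 14.9 CPM with vehicle to 52.1 and 46.4 CPM with IACS-70654 (log2 change 1.59 ± 0.12, adjusted p = 2.68e-12), with 18.4 and 16 CPM in WT. H1fx, a linker histone, rose by 1.19, Hmgn2, a nucleosome-binding protein, held 127 and 125, 132 and 122, and 223 and 231 CPM and rose by 0.83, and Pclaf, which binds the replication clamp, held 131 and 127, 131 and 129, and 228 and 230 CPM and rose by 0.82. Glcci1, Cltb (a clathrin light chain), Adgrl2, Arl3 and Bicd1 rose by 0.84 to 0.98. Of the 10, 8 were called under all 16 alternatives, S100a8 under 14 and Bicd1 under 13. S100a8, a neutrophil gene, rose by 1.33 in members and by 2.39 in the other kept cells.

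**Figure D5:**
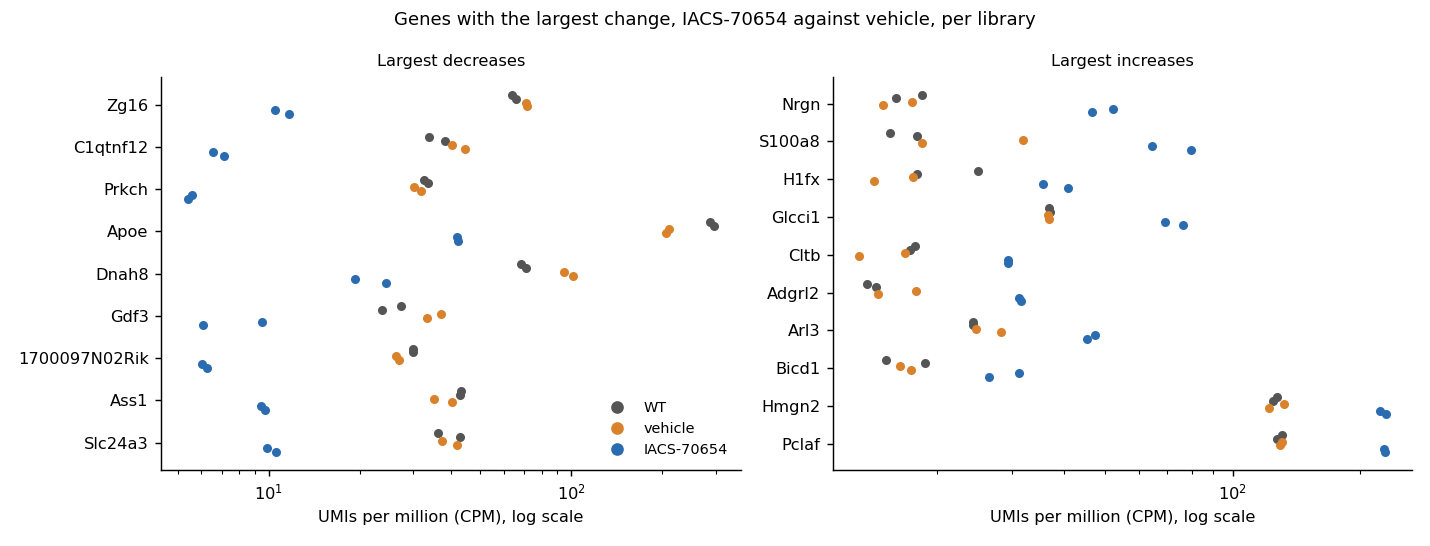
CPM on a log axis (x axis) in the members of each library for 9 of the 10 largest decreases (left) and the 10 largest increases (right) between IACS-70654 and vehicle (y axis, genes). In each row the 2 IACS-70654 points lie apart from the 2 vehicle points, a condition of the choice, and for Zg16, C1qtnf12 and Prkch the WT points lie with vehicle.

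The largest increases from WT to vehicle, after globin, were in Tex14, an intercellular bridge protein, at 85.4 and 90.8 CPM in WT, 177 and 153 CPM with vehicle and 79.6 and 82.1 CPM with IACS-70654 (log2 change 0.92 ± 0.063, adjusted p = 2.13e-12), and in Gria3, Cers6, Mgst3, Sox6, Gm42047, Vps13c and S100a8, by 0.75 to 0.87. Tex14, Mgst3 and Vps13c then fell by 1.05, 0.67 and 0.75 with IACS-70654, whereas Gria3 and Cers6 were not called. The rise of S100a8 turned to -0.0712 when members were chosen after thinning. The rise of Cers6 turned to -0.30 among members with at least 10 UMIs of Klf1 and Car1 and no Cd34 or Gata2 UMI.

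Decreases from WT to vehicle included the immediate early genes Fos, by 0.98, and Jun, which held 217 and 181 CPM in WT, 111 and 99.5 CPM with vehicle and 137 and 133 CPM with IACS-70654 (log2 change -0.92 ± 0.069, adjusted p = 2.21e-11). Angpt1, the ligand angiopoietin-1, held 130 and 112, 66.5 and 65.5, and 53.9 and 44.7 CPM and fell by 0.89. Gm47283 held 185 and 169, 72.3 and 65.5, and 58.3 and 61.4 CPM and fell by 1.35. The others were Pf4, Prkg1, Hist1h2ac, Pde4b, Rnf125 and Gna14, by 0.62 to 1.23. Of the 16 alternative settings, 8 called Prkg1, 10 Pf4, 13 Pde4b and Rnf125, 14 Gna14 and 15 Hist1h2ac.

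Genes of other lineages moved in members too. Of 8 tested neutrophil granule genes 7 rose from WT to vehicle (Mpo, Elane, Prtn3, Ctsg, Ms4a3, S100a8 and S100a9), with a median of 0.72, whereas DESeq2 called 0. When members were chosen after thinning, the changes of Ms4a3 and S100a8 were -0.17 and -0.0712, and with at most 0.2% other-lineage UMIs that of Ms4a3 was -0.16. S100a9 held 21.0 and 19.7 CPM in WT and 59.3 and 14.9 CPM with vehicle, and its change was -0.46 without vehicle replicate 1, -0.0943 after thinning and -0.15 with at most 0.2% other-lineage UMIs. The 0.2% limit drops cells by UMIs of these same genes, so lower values under it are favoured by the choice. Summed over the 14 listed genes, of which 0 to 3 were at 0 in a library, members held 935 to 1070 CPM in WT, 1320 to 1752 CPM with vehicle and 1391 to 1684 CPM with IACS-70654, and the other kept cells 8520 to 9242, 15886 to 16334 and 14935 to 14983 CPM. Members thus held 8.31% to 11.6% of the level of the other cells in each library. The 10 megakaryocyte genes summed to 29.0 to 95.7 CPM in members. Of 7 tested, 0 rose and 1 fell from WT to vehicle, with 7 negative log2 changes and a median of -0.67. From vehicle to IACS-70654 3 rose and 0 fell, with 5 positive and 2 negative changes and a median of 0.56. DESeq2 called 0 in both comparisons. Pf4 moved by -1.23 from WT to vehicle and by 1.07 from vehicle to IACS-70654. Without IACS-70654 replicate 1 the latter change was -0.03.

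The lymphoid gene Ebf1 was at 0.966 to 1.31 CPM in WT, 8.72 and 25.8 CPM with vehicle and 0.648 to 4.15 CPM with IACS-70654. Summed over the 9 listed lymphoid genes, of which 2 or 3 were at 0 in a library, members held 12.9 and 12.4 CPM in WT, 27.9 and 55.2 CPM with vehicle and 19.02 and 12.3 CPM with IACS-70654. This was 22.8% and 35.5% of the level of the other cells in the vehicle libraries and 7.40% to 12.3% in the 4 others. The 8 monocyte genes summed to 45.3 and 51.2 CPM in WT, 79.9 and 64.4 CPM with vehicle and 47.1 and 69.8 CPM with IACS-70654, and from WT to vehicle 0 of them were called by edgeR or DESeq2, with 8 positive log2 changes, a median of 0.61 and 6 at an unadjusted p under 0.05. The 6 eosinophil genes summed to 8.28 to 14.3 CPM. The 8 basophil and mast cell genes, 3 of which the rule limits, summed to 19.4 to 38.7 CPM. The part of free RNA and of doublets in the results was not tested. Members were also limited to at most 0.2% of UMIs from the neutrophil, monocyte, lymphoid, eosinophil and megakaryocyte lists, without the basophil and mast cell list. Then 38 genes were higher and 41 lower between vehicle and WT and 167 higher and 467 lower between IACS-70654 and vehicle.

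Whether a change differed from that in the other c-Kit+ cells was tested as an interaction. Of 15321 genes tested in the other cells, 3.98% were higher and 3.67% lower in vehicle than WT, and 4.41% higher and 6.22% lower with IACS-70654 than vehicle. In the joint fit of 14404 genes, the change of 264 or 1.83% differed between vehicle and WT and 495 or 3.44% between IACS-70654 and vehicle. The latter count was 329 without vehicle replicate 1. Prkch and C1qtnf12 fell in members, and in other cells were not called, where Prkch held 30.0 to 32.0 CPM and C1qtnf12 11.5 to 12.7 CPM with vehicle or IACS-70654, and the changes differed by 2.46 ± 0.17 and 2.54 ± 0.18 on the log2 scale (adjusted p = 1.65e-16 and 6.32e-16). Pclaf rose in members by 0.82 and moved by -0.31 in other cells, and Hmgn2 by 0.83 against 0.05. Apoe and Zg16 also fell in other cells, by 1.35 and 1.87. The genes named here were chosen by the size of their change in members, which favours a difference from the other cells. Changes of Ass1, Gdf3, Nrgn and H1fx were not called different between the 2 cell sets.

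From WT to vehicle Hbb-bs and Hba-a1 differed from other cells by 2.28 and 2.16, where they moved by -0.68 and -0.70. The other cells include erythroid cells short of a Gata1 UMI, whose share was lower in tumor-bearing mice, and erythroid genes are lower there too, such as Rhag at 17.7 and 19.4 CPM in WT and 7.65 and 6.05 CPM with vehicle. From vehicle to IACS-70654 the changes of Hbb-bs and Hba-a1 were not called different between members and other cells (0.15 ± 0.11 and 0.12 ± 0.14). In these libraries globin was 234 to 386 CPM in cells short of a Gata1 UMI and 23.8 to 42.1 CPM in all other cells. The comparison is thus partly between erythroid cells and does not show how cells of other lineages changed.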

How the data were processed

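Single-cell 3′ RNA libraries of sorted BM cells were multiplexed by sample tag. The deposited matrices hold UMI counts per gene and cell, which the authors made with Cell Ranger (7.2.0 in the matrix headers) on mm10, and Seurat is also named in the processing notes. The 6 c-Kit+ libraries of 16 were used, the others were not analysed here, and 0 columns of other samples were found. Members were chosen by the rule in the text, and the members and the 22 gene lists (383 genes) were chosen with earlier results of these data known. UMI counts were summed over members per library, filtered with filterByExpr, scaled by TMM and fitted over the 6 libraries with the quasi-likelihood test of edgeR 4.0.16 in R 4.3.3, and p-values were adjusted by the Benjamini-Hochberg method over all genes tested. The 6 genes of the rule were left out of the test. The difference from other kept cells was an interaction term with the library as a block. Shares were compared by exact two-sided permutation over libraries, and their intervals (exact binomial, 95%) cover counting error only.

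Named genes were the members of the lists and, per comparison, the 10 called genes with the largest increase and the 10 with the largest decrease whose libraries did not overlap and whose mean was at least 20 CPM. Some genes that met this rule are not reported here. DESeq2 1.42.0, other scalings, no filter, a replicate block, other limits on members and leaving out each library were alternatives. Same-numbered libraries were not treated as pairs, since their deviations from the group means correlated at 0.0708, 0.0984 and 0.026. On simulated counts for IACS-70654 against vehicle, 79.5% of genes changed by 1 on the log2 scale were called and 14.5% of those changed by 0.6, with 6 and 0 false calls. The simulated dispersion was 0.01. The biological coefficient of variation of these data was 0.0398, and the square of that value is below 0.01. The simulated spread was thus larger than that of the data, so the shares called are not those expected for these data. Sequences came from RefSeq on GRCm38.p6, and 9000 of the 11640 tested genes had a promoter entry. Python 3.11.15, numpy 2.4.6, pandas 2.3.3, scipy 1.17.1 and matplotlib 3.10.9 were used.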

Additional observations from a re-analysis of the deposited data

Results flagged for a closer look

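Among the 20 genes with the largest changes per comparison, those below changed in members by another amount than in the other c-Kit+ cells, by the edgeR interaction test (adjusted p below 0.01, difference over 0.5). Values are the log2 change in members minus that in the other cells. From WT to vehicle 6 of 10 increases and 0 of 10 decreases differed, against 1.83% of all genes. The genes were chosen by the size of their change in members, which favours a difference from the other cells. The difference was 2.28 for Hbb-bs, 2.16 for Hba-a1, 1.46 for Sox6, 0.67 for Mgst3 and 0.58 for Gm42047, and -0.67 for S100a8, which rose by 0.75 in members and by 1.41 in other cells. The other cells are a mixture whose make-up differs between the groups, with a lower share of erythroid cells short of a Gata1 UMI in tumor-bearing mice. What part of these differences lies in that mixture was not tested.

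From vehicle to IACS-70654, 8 of 10 decreases and 4 of 10 increases differed, against 3.44% of all genes. These genes too were chosen by the size of their change in members. C1qtnf12, at -2.54, and Prkch, at -2.46, stood furthest apart, followed by Slc24a3 at -1.78, Dnah8 at -1.64 and 1700097N02Rik at -1.58. Slc24a3 held 52.2 to 55.9 CPM in the other cells of these libraries, with a change of -0.14. Differences were -0.95 for Apoe and -0.85 for Zg16, which fell in both cell sets. Pclaf at 1.14, Hmgn2 at 0.78 and Glcci1 at 0.73 rose more in members, and S100a8 at -1.02 rose less.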

How the results depend on the processing

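The number of genes called depended on the setting. From WT to vehicle, where 65 genes were higher and 41 lower, DESeq2 called 14 and 12, members chosen after thinning to 3000 UMIs gave 16 and 16, at least 10 UMIs of Klf1 and Car1 gave 42 and 16, no Gata1 requirement 140 and 79, at least 10 such UMIs with no Cd34 or Gata2 UMI 28 and 11, at most 0.2% other-lineage UMIs 38 and 41, and members without a globin UMI 20 and 24. From vehicle to IACS-70654 (143 and 472) DESeq2 called 45 and 253, thinning gave 61 and 219, and members without a globin UMI 96 and 251. For IACS-70654 against WT (209 and 499) these were 71 and 267, 105 and 272, and 120 and 271. Leaving out 1 library gave 20 to 68 and 15 to 54, 62 to 189 and 264 to 514, and 144 to 229 and 347 to 498, and for changes that differed from other cells 206 to 316 (vehicle against WT) and 329 to 554 (IACS-70654 against vehicle).

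The lower share of members in vehicle than WT was -3.02 percentage points after thinning, -7.60 with at least 10 UMIs and -18.1 without Gata1, and -10.5 to -9.33 with 1 library left out. For IACS-70654 against WT these were -2.41, -7.12, -18.5 and -10.3 to -9.13, and against vehicle leaving out 1 library gave -0.362 to 0.801. The share with globin UMIs differed by 1.75 (at least 10 UMIs) and 16.4 (no thinning) between IACS-70654 and vehicle and by 6.41 and 22.1 against WT. With 1 library left out it was 3.18 to 7.12 for vehicle against WT, 6.61 to 10.5 and 12.9 to 14.5. The share with a Cd34 or Gata2 UMI differed by -0.94 (at least 2 UMIs) and -6.45 (no thinning) for vehicle against WT, by -1.60 and -9.15 for IACS-70654 against vehicle and by -2.54 and -15.6 against WT, and by -4.85 to -1.75, -6.20 to -3.41 and -9.66 to -6.56 with 1 library left out.

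Over the 16 settings that do not choose members by globin, Cd34 or Gata2, which differ between groups, 2614 of 2921 values for 183 results on named genes kept direction and call, 293 kept direction and lost the call, and 14 changed sign. All 183 results were called in the main fit, and most settings refit overlapping counts, so a kept direction was favoured by the choice. Among the 16, the 0.2% limit chooses members by UMIs of neutrophil, monocyte, lymphoid, eosinophil and megakaryocyte genes. For genes of those lists it is no independent check. The other 2 settings gave 3 more sign changes. From WT to vehicle they were Ms4a3 (-0.17 with thinning, -0.16 with at most 0.2% other-lineage UMIs), S100a8 (-0.0712 with thinning), S100a9 (-0.0943 with thinning, -0.15 at 0.2%, and -0.46 to 1.51 with 1 library left out, the lowest without vehicle replicate 1) and Cers6 (-0.30 with at least 10 UMIs and no Cd34 or Gata2 UMI, -0.16 at 0.2%). From vehicle to IACS-70654 these were Hba-a2 (-0.78 to 0.0351 with 1 library left out, the highest without vehicle replicate 1), Ly6c2 (0.23 with at least 10 UMIs and no Cd34 or Gata2 UMI, 0.18 at 0.2%), Pf4 (-0.0335 to 1.73, the lowest without IACS-70654 replicate 1) and Ebf1 (1.02 at 0.2%), and against WT Prtn3 (-0.0208 at 0.2%), S100a9 (-0.28 with thinning, -0.0864 at 0.2%) and Jun (0.22 with at least 10 UMIs and no Cd34 or Gata2 UMI). The cause was not tested.

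With the replicate number as a block, 71 and 47, 160 and 497, and 231 and 534 genes were called, and 4 of 183 named calls changed. A planned limit of at most 2 other-lineage UMIs was not run, since it left 2 to 19 members per library. The limits by globin, by 0.2% and by Cd34 or Gata2 and the setting without Gata1 were chosen after seeing the data. Genes under a few CPM, such as Slc4a1 and Alas2, rest on few UMIs.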
